A study of Mus musculus with 7 samples.

Results

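The genes described here encode the nuclear subunits of the mitochondrial respiratory chain, complexes I to IV, and of ATP synthase, complex V. They were taken by name alone from the targets of a mouse whole transcriptome panel. The name rule used no measured value, but earlier results of these data were known when it was chosen. The names were those starting with Nduf and a, b, c, s or v, the Sdh genes of complex II, the Uqcr names and Cyc1 of complex III, Cox names with a subunit number from 4 to 8, and Atp5 names. This took 96 of 19963 targets, and all 96 matched a gene of the RefSeq annotation. Of these, 40 carried complex I names, 4 complex II, 9 complex III, 18 complex IV and 17 complex V. The remaining 8 were Ndufaf genes, which the same pattern takes and which encode assembly factors of complex I, not subunits. They were counted apart. Ndufa4 is named after complex I and is known as a subunit of complex IV. It was counted with complex I, as named. Cox7a2l is a factor that joins complexes III and IV into larger assemblies.

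Complexes I and II pass electrons from NADH and succinate to ubiquinone, complex III passes them on to cytochrome c, and complex IV to oxygen. Complexes I, III and IV pump protons out of the mitochondrial matrix, and ATP synthase lets the protons back and makes ATP. Each complex has a core that does the chemistry and further small subunits that hold it together, and all but complex II also contain subunits encoded in the mitochondrial DNA. RefSeq lists 13 such protein genes. The panel has targets for 0 of them, so they were not analysed here. Hepatocytes are rich in mitochondria and use this chain to burn fatty acids and to pay for glucose and urea synthesis.

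RNA was read from formalin-fixed liver of mice aged 24 weeks on the NCD or the FFD diet, as the labels name the diets, with 3 regions per diet on 1 slide. The region names of the segment table read WT in both diets. Regions were drawn on areas positive for Albumin and not marked by CLEC4F, a Kupffer cell protein. The assay, GeoMx, releases bar-coded probes from each region with light and counts them by sequencing, and 1 probe reads each of the 96 genes. Levels of different genes therefore also carry the probes' own efficiency, and only levels of the same gene are compared. The series text states 3 mice per diet without tying regions to mice, so the p-values measure the spread between these regions, which may be technical in part. NCD 1 and NCD 2 were much closer to each other than any other pair, with a chi-square of 1.27 per degree of freedom over the tested genes, against 5.13 to 7.89 for the other pairs of 1 diet. They differed by more than sampling noise, which does not show whether they come from the same mouse or from different mice. They were kept as 2 samples, and counts of calls with both summed into 1 are given where they differ.

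Total counts of the tested genes ran from 2069101 to 3491372 per region. NCD regions held 1747 to 1940 nuclei and FFD regions 1077 to 1264. The defining markers of hepatocytes were above the detection limit in every region for 7 of 7 genes, and their summed level was 85761 to 122784 CPM (scaled counts over the scaled library total) in NCD regions and 44572 to 73150 in FFD regions. Of these 7 genes, 4 were called lower in FFD, namely Apoa1, Cps1, Hnf4a and Fgb. Alb, the largest part of the sum, was not called. Apob was higher in every FFD region, at 1002 to 1217 CPM in NCD and 1263 to 1739 in FFD, and was not called. The summed level of 8 Kupffer cell and macrophage markers was 641 to 831 CPM in NCD and 956 to 1316 in FFD, with 4 higher and 1 lower. The 4 were Adgre1, Cd68, C1qa and C1qb, and the 1 was Timd4. In log2 of FFD over NCD, Clec4f stood at -0.00, Vsig4 at 0.39 and Marco at -0.54, and none of these was called. The sum thus joins genes that went in opposite directions. For 5 markers of lipid-associated macrophages it was 144 to 159 and 813 to 1428 CPM, with 5 higher, and for 7 markers of stellate cells and fibroblasts 353 to 382 and 678 to 1210 CPM, with 5 higher. Of all tested genes, 5.94% were higher and 11.1% lower by the same test, described below. No marker of any list was at 0 in every region. Regions are mixtures, and fewer cells of a type cannot be told apart from less RNA per cell. The part of these other cells in the differences below was not tested.

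Most of the energy genes did not pass the test for a diet difference with upper quartile scaling, which does not show equal levels. Counts were scaled to the upper quartile of each region and tested with edgeR's quasi-likelihood test, with p-values adjusted over all 13095 genes of the deposited filtered table, which holds 91 of the 96 members. Of the 91, 2 passed as higher in FFD, Sdhc of complex II and Cox7c of complex IV. Another 6 passed as lower, namely Ndufb1, Ndufb11 and Ndufv3 of complex I, Cox8c and Cox6b1 of complex IV and Atp5md of complex V. These 8 are 8.79% of the tested members, beside 17.1% of all tested genes called in either direction, 5.94% higher and 11.1% lower. At an unadjusted p under 0.05, 8 members were higher and 8 lower, beside 10.6% and 22.5% of all tested genes.

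The median log2 fold change of the 91 genes, FFD over NCD, was 0.09, with the middle of the distribution from -0.13 to 0.22. Over all tested genes it was -0.11. Among genes above the detection limit in all 6 regions, the median was 0.10 for 81 members and -0.03 for all 6600 such genes. A gene counted as detected in a region when its count passed 2 times the level of the negative probes there, the detection limit used throughout. Of the 91 estimates, 60 lay above zero and 31 below, 51 lay within 0.2 of zero and 88 within 0.5. The range was -0.92 to 0.44, so the largest change in either direction was 1.9-fold, and standard errors (SE) of single genes were 0.13 to 0.23. For 6 members all FFD regions lay above all NCD regions, beside 12.2% of all tested genes, and for 9 all lay below, beside 24.5%. The first set held the called Sdhc and Cox7c with Ndufa2, Ndufa7, Ndufs1 and Ndufaf3, and the second the 6 called genes with Ndufb6, Ndufs8 and Cox6c.

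**Figure D1:**
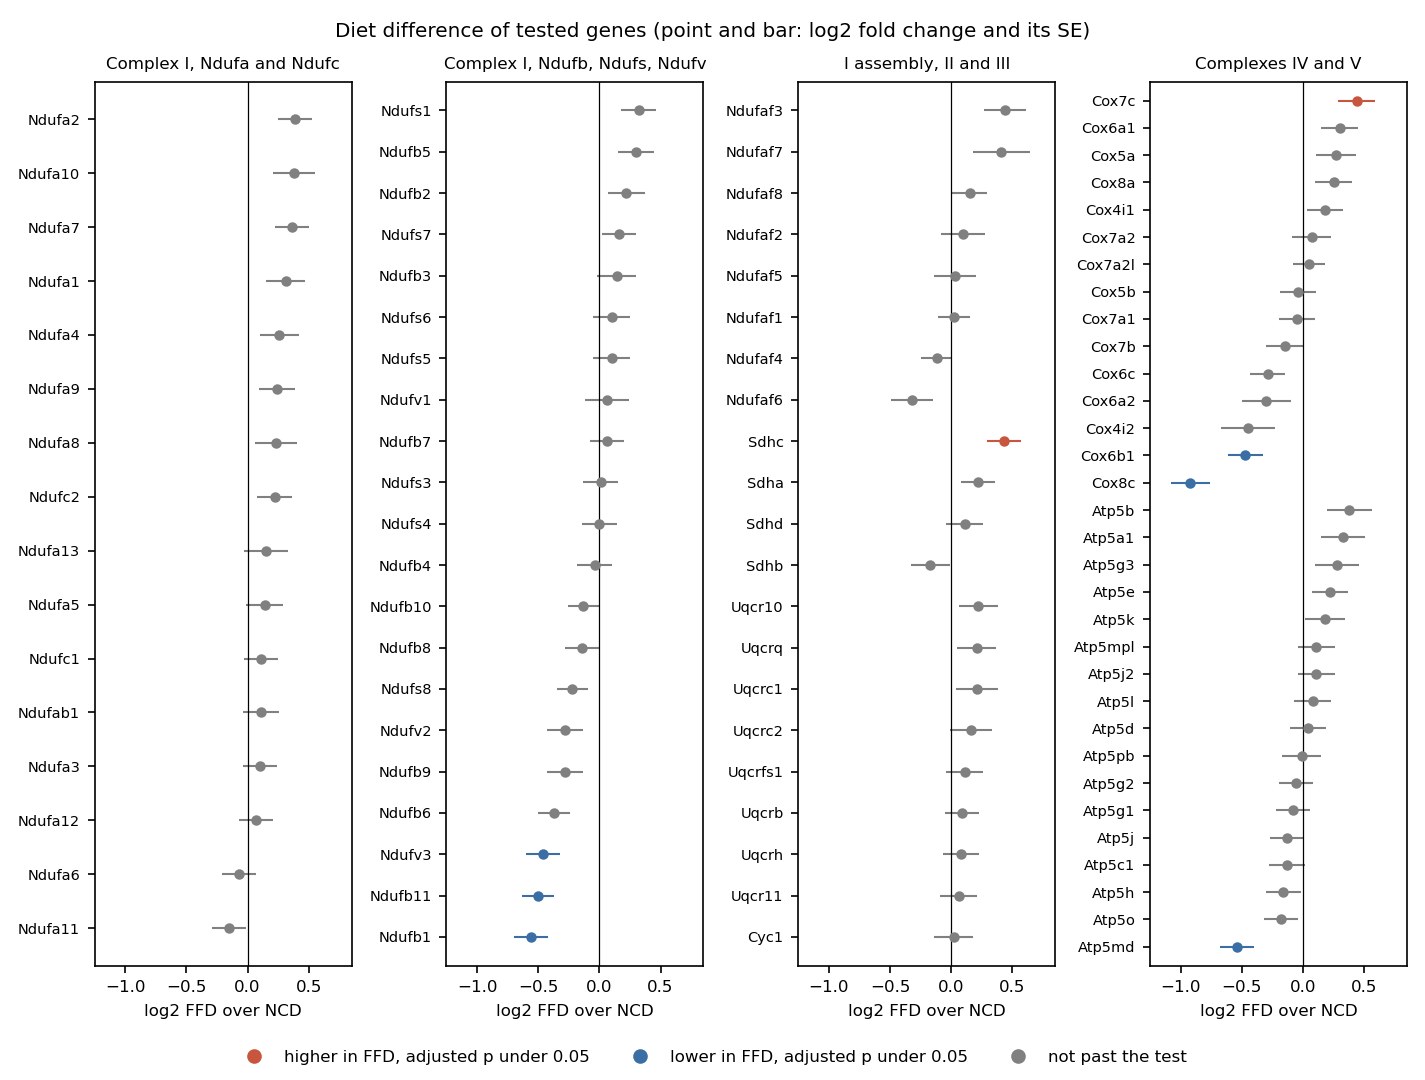
Log2 fold change of FFD over NCD for the tested genes, 1 of the 91 not shown, with the SE as a bar, sorted within each panel by complex and size. Called genes are coloured, 2 higher and 6 lower. All grey points lie within 0.5 of the zero line. By their medians, 0.23 and -0.13, the Ndufa names sit to the right of the Ndufb names.

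Which members passed depended on the scaling. Against upper quartile scaling, the median of all genes moved by 0.10 with TMM and with DESeq2's size factors, by 0.11 with total counts and by 0.39 with the negative probes. A scaling moves all genes of a region by the same factor, so the gap between members and all genes could hardly change. The median of the members was 0.18 to 0.19 above that of all genes under these 4 scalings. Among genes above the detection limit in all 6 regions the gap was 0.11 to 0.12. TMM gave 5 members higher and 3 lower, beside 8.69% and 6.82% of all genes. The size factors gave 5 and 2, beside 8.64% and 6.83%, and total counts 8 and 4, beside 8.62% and 4.61%. Scaling to the negative probes gave 46 higher and 1 lower, beside 27.7% and 1.57%. DESeq2's Wald test gave 3 and 2, beside 5.82% and 3.57%. With the negative probe level subtracted from every count, 0 members were higher and 6 lower, beside 5.52% and 6.07% of all genes, and the members' median stood 0.06 above that of all genes in place of 0.19.

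Single regions moved the counts as well. There were 0 members higher and 3 lower without NCD 1, beside 3.71% and 5.38% of all genes, and the same numbers without NCD 2, beside 3.02% and 4.71%. Without NCD 3 there were 9 and 5, beside 6.51% and 13.6%. Without FFD 1 the counts were 0 and 5, beside 4.93% and 8.44%. Without FFD 2 they were 1 and 1, beside 4.52% and 6.27%, and without FFD 3 they were 0 and 6, beside 5.35% and 8.84%. With NCD 1 and NCD 2 summed they were 0 and 3, beside 3.9% and 6.98%. Cox8c was the only member called under all 19 alternatives. Ndufb1 was called under 17, Atp5md under 15, Cox7c under 13, Sdhc under 12, Ndufb11 under 9, and Ndufv3 and Cox6b1 under 6 each.

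**Figure D2:**
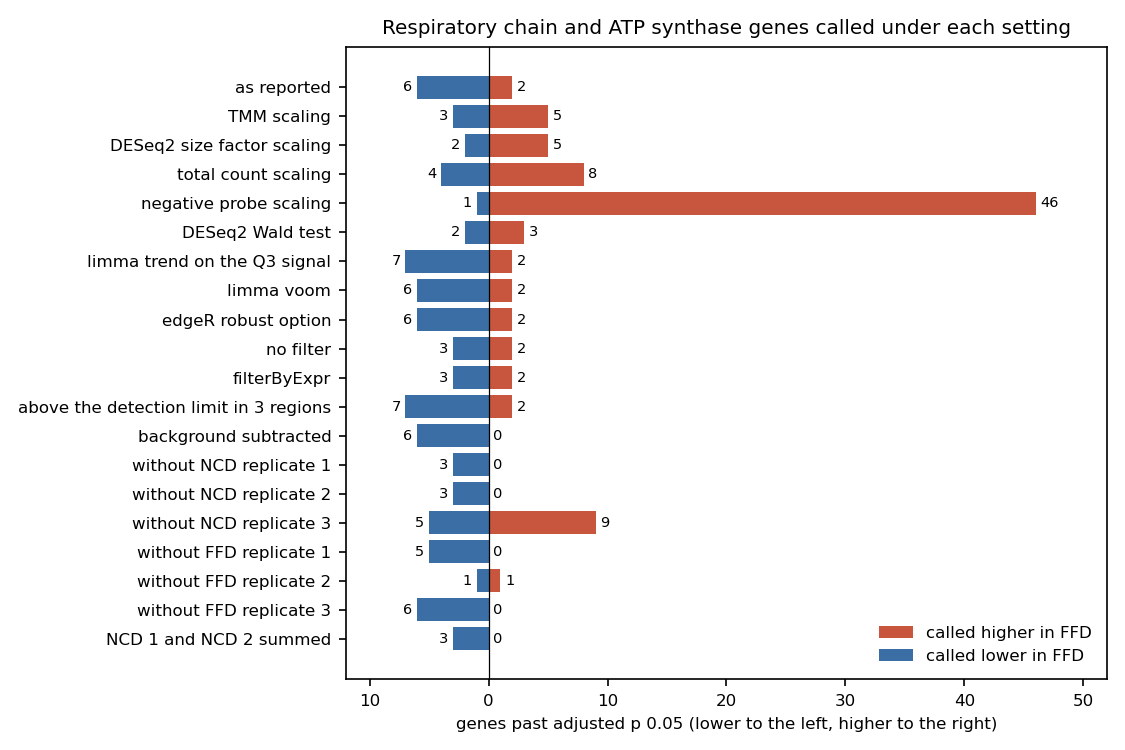
Number of the tested members called higher in FFD (bars to the right) and lower (bars to the left) in the fit as reported and under 19 alternatives. The counts run from 2 higher and 6 lower as reported to 46 higher and 1 lower with negative probe scaling.

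Complex I, the NADH dehydrogenase, was the largest group. Of 38 tested genes with complex I names, Ndufa4 included, 0 passed as higher and 3 as lower with upper quartile scaling, and 35 did not pass. The 3 are 7.89% of the 38, beside 17.1% of all tested genes called in either direction. Other scalings gave calls in both directions or upward. TMM and size factors each gave 2 higher and 1 lower. Shares of all tested genes were 8.69% and 6.82% with TMM and 8.64% and 6.83% with size factors. Total counts gave 4 and 2, beside 8.62% and 4.61%, and negative probes 22 and 0, beside 27.7% and 1.57%. The median log2 fold change was 0.10, with a range of -0.56 to 0.39. Ndufb1, a small subunit of the membrane arm (chromosome 12, 101968096 to 101975738 of GRCm38), stood at 228, 209 and 230 CPM in NCD regions 1 to 3 and at 161, 134 and 157 CPM in FFD regions 1 to 3. No FFD value reached the NCD range. The change was -0.56 on the log2 scale (SE 0.14, adjusted p = 0.011), a fall to 0.677 of the NCD level. The call was lost without FFD 2 (log2 -0.48, adjusted p = 0.0533) and with negative probe scaling (log2 -0.18, adjusted p = 0.46).

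Ndufb11, another membrane arm subunit and an X-linked gene (X, 20615326 to 20617619), was at 299, 302 and 311 CPM in NCD and at 217, 207 and 222 CPM in FFD. The values were tight within each diet, and the lowest NCD region stood well clear of the highest FFD region. The fitted change was -0.50 (SE 0.13, adjusted p = 0.018). It did not pass without NCD 1 (adjusted p = 0.0587), NCD 2 (0.083) or FFD 2 (0.0619), or with TMM scaling (log2 -0.40, adjusted p = 0.0637), and with negative probe scaling the change was -0.11 (adjusted p = 0.687).

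Ndufv3 is an accessory subunit of the NADH-binding module in the matrix arm (chromosome 17, 31520115 to 31531326). Its level was 113, 122 and 135 CPM in NCD and 82, 82.3 and 106 CPM in FFD. FFD 3 came near the lowest NCD region, without overlap. The change of -0.46 (SE 0.14) had an adjusted p of 0.0367. Of the regions, leaving out FFD 3 alone kept the call, and without NCD 1, NCD 2, NCD 3, FFD 1 or FFD 2 the adjusted p was 0.0589, 0.109, 0.0794, 0.102 and 0.125. With TMM scaling it was 0.11, and with negative probe scaling the change was -0.07 (adjusted p = 0.776).

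The name groups of complex I did not lie at the same place. Among the 13 tested Ndufa names 0 were called, 11 lay above zero and the median was 0.23. Ndufa2, an accessory subunit of the matrix arm, was at 166, 164 and 196 CPM in NCD and 225, 208 and 259 CPM in FFD, without overlap (log2 0.39, SE 0.14, adjusted p = 0.0708). The 11 tested Ndufb names encode accessory subunits of the membrane arm. Of these, 2 were lower (18.2%, beside 11.1% of all tested genes), 7 lay below zero and the median was -0.13. That median turned to 0.26 with negative probe scaling and kept its sign under the other 18 alternatives. The Ndufa median was above zero under all 19. Ndufb6 stood next to the called genes at 176, 173 and 184 CPM in NCD and 140, 125 and 149 CPM in FFD (log2 -0.37, SE 0.13, adjusted p = 0.0657). Some Ndufb names went the other way, such as Ndufb5 at 0.30 (SE 0.15, adjusted p = 0.176). The difference between the name groups was not tested.

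The 7 nuclear core subunits of complex I, which carry the flavin and the iron-sulfur clusters or face the quinone, gave 0 calls and a median of 0.06. Ndufs1, which holds iron-sulfur clusters, was highest among them at 0.32 (SE 0.14, adjusted p = 0.114), and Ndufv2, which also holds a cluster, lowest at -0.28 (SE 0.15, adjusted p = 0.21). Ndufs8, with a pair of clusters near the quinone site, was at 108, 115 and 129 CPM in NCD and 104, 95.7 and 104 CPM in FFD. Its FFD values were all lower, by a log2 change of -0.22 (SE 0.13) that missed the threshold (adjusted p = 0.255). Ndufv1, the flavin-binding subunit, passed the detection limit in 1 NCD region and 3 FFD regions, so background is a sizeable part of its level. The targets of Ndufs5 and Ndufb4 are shared, with the pseudogene Ndufs5-ps and with Ndufb4b and Ndufb4c. They stood at 0.10 and -0.04, and neither passed.

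None of the 8 complex I assembly factors passed (0 by edgeR, 1 higher at an unadjusted p under 0.05, and 0 by DESeq2), and the median was 0.06. Ndufaf8 and Ndufaf1, known in human as factors in building the matrix arm and the membrane arm, were named as the factors of highest count. Ndufaf8 was at 50.1, 47.5 and 51.4 CPM in NCD and 54.1, 47.4 and 64.2 CPM in FFD. Ndufaf1 was at 45.2, 42.5 and 53.6 CPM in NCD and 50.7, 44.9 and 48.6 CPM in FFD. Both overlapped between the diets, with changes of 0.15 (SE 0.14) and 0.02 (SE 0.13). Ndufaf3 was at 18.5, 26.1 and 27.6 CPM in NCD and 35.5, 34.3 and 29.3 CPM in FFD (log2 0.44, SE 0.17, adjusted p = 0.082) and was above the limit in 1 NCD region. Only 3 of the 8 were above the limit in all NCD regions, and Ndufaf7, a methyltransferase, in no region.

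Complex II, succinate dehydrogenase, also belongs to the citric acid cycle. Its membrane anchor Sdhc (chromosome 1, 171129157 to 171150640) was at 66.1, 68.1 and 84.7 CPM in NCD regions and at 104, 92 and 102 CPM in FFD regions. Each FFD region lay above each NCD region. Sdhc rose 1.35-fold (log2 0.43, SE 0.14, adjusted p = 0.0383). The call was lost without NCD 1 (adjusted p = 0.15), NCD 2 (0.164), FFD 1 (0.087), FFD 2 (0.053) or FFD 3 (0.0747), and with background subtracted (log2 0.46, adjusted p = 0.0728).

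The other members of complex II did not pass. Sdha, the flavoprotein that oxidises succinate, was at 0.22 (SE 0.14, adjusted p = 0.291), and Sdhd, the partner anchor of Sdhc, at 0.11 (SE 0.15, adjusted p = 0.642). Sdhb, which carries the iron-sulfur clusters, was at 160, 156 and 225 CPM in NCD and 185, 145 and 151 CPM in FFD (log2 -0.17, SE 0.16, adjusted p = 0.482). NCD 3 alone was above all FFD regions.

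Complex III, the cytochrome bc1 complex, had estimates in a narrower range than any other complex. None of its 9 members passed (0 by edgeR in either direction, also at an unadjusted p under 0.05, and 0 by DESeq2), and the estimates ran from 0.02 to 0.22 with SE of 0.14 to 0.17. All 9 were above zero as fitted. TMM, size factor, total count and negative probe scaling moved genes in general upward, so the 9 could hardly leave that side there. With background subtracted or without FFD 3, 6 of 9 were above zero, and without NCD 2, 7 of 9. Uqcrq, a small subunit of the membrane part, was at 305, 282 and 373 CPM in NCD and 353, 326 and 431 CPM in FFD (log2 0.21, SE 0.16, adjusted p = 0.382). Uqcrh, the acidic hinge protein that helps cytochrome c to dock, was at 226, 228 and 275 CPM in NCD and 257, 229 and 285 CPM in FFD (log2 0.08, SE 0.15, adjusted p = 0.749). The electron carriers of the core, the cytochrome Cyc1 and the Rieske protein Uqcrfs1, stood at 0.02 (SE 0.16) and 0.11 (SE 0.15). In each of these genes the diets overlapped.

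Complex IV, cytochrome c oxidase, held the largest fall and the largest rise among the called members. Of 15 tested genes 1 was higher and 2 lower, together 20%, beside 17.1% of all tested genes called in either direction. The median of -0.04 turned to 0.06 with TMM or size factors, 0.07 with total counts and 0.34 with negative probes. Cox7c (chromosome 13, 86044798 to 86046795), a small membrane subunit whose target is shared with the predicted gene Gm12338, was at 124, 115 and 150 CPM in NCD and 178, 157 and 195 CPM in FFD. FFD 2, the lowest FFD region, was just above NCD 3, the highest NCD region. Cox7c rose 1.36-fold (log2 0.44, SE 0.15, adjusted p = 0.0489), close to the threshold. Without NCD 1, NCD 2, FFD 1 or FFD 3 the adjusted p was 0.155, 0.221, 0.0835 and 0.129, and with background subtracted 0.117.

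Cox8c (chromosome 12, 102899306 to 102900534) belongs to the Cox8 family and in human is known from testis. It was at 50.1, 55.5 and 37.6 CPM in NCD and 26.7, 24.6 and 23.3 CPM in FFD. The FFD values were close together and all below NCD 3, the lowest NCD region. Cox8c fell to 0.527 of its NCD level (log2 -0.92, SE 0.16, adjusted p = 0.00137), and it was called without each region in turn. It was also a low target. Its raw counts of 103, 132 and 120 in NCD lay against detection limits of 57.66, 63.24 and 81.32, and its counts of 70, 79 and 58 in FFD against limits of 57.14, 58.36 and 53.12. With background subtracted the change was -1.33, still past the threshold. The 2259 tested genes that passed the limit in no region had a median of -0.33, and the negative probe level relative to the upper quartile was 0.241 to 0.264 in NCD and 0.172 to 0.206 in FFD.

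Cox6b1, a subunit that faces the intermembrane space (chromosome 7, 30616971 to 30626114), was at 52.5, 65.2 and 54.2 CPM in NCD and 47.7, 40.8 and 35.7 CPM in FFD. FFD 1 came close to NCD 1, without overlap. The change was -0.47 (SE 0.14, adjusted p = 0.0352). The call was lost without NCD 1 (adjusted p = 0.0532), NCD 2 (0.17), FFD 2 (0.0927) or FFD 3 (0.113), with background subtracted (log2 -0.60, adjusted p = 0.0585) and with TMM scaling (0.0892), and the change was -0.08 with negative probe scaling (adjusted p = 0.762). Cox6c, a membrane subunit, was at 408, 416 and 431 CPM in NCD and 347, 315 and 363 CPM in FFD, all lower, with a change of -0.29 (SE 0.14) that did not pass (adjusted p = 0.149).

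Several subunits of complex IV exist as paralogues known from different tissues, and most general or liver forms were far above background. Cox6b1, however, lay at 3.35 to 4.9 times the negative probe level. Cox4i1, the general form of subunit 4, was at 553, 573 and 625 CPM in NCD and 640, 612 and 725 CPM in FFD (log2 0.18, SE 0.15, adjusted p = 0.431). Its lung form Cox4i2 was at 28.7, 24.8 and 21.9 CPM in NCD and 14.9, 14 and 26.5 CPM in FFD, and passed the limit in 1 region of each diet. It did not pass (log2 -0.45, SE 0.22, adjusted p = 0.17), but was called lower without FFD 3 (log2 -0.78, adjusted p = 0.0151). Cox6a1, the liver form of subunit 6a, was at 512, 551 and 652 CPM in NCD and 742, 642 and 733 CPM in FFD (log2 0.30, SE 0.15, adjusted p = 0.182). NCD 3 was just above FFD 2, and no other pair of regions overlapped. The muscle form Cox6a2 stayed at 1.23 to 1.84 times the negative probe level.

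Cox7a2, the general form of subunit 7a, was at 341, 347 and 442 CPM in NCD and 427, 345 and 415 CPM in FFD (log2 0.07, SE 0.16). The related assembly factor Cox7a2l was at 296, 288 and 275 CPM in NCD and 302, 301 and 285 CPM in FFD (log2 0.05, SE 0.13). The muscle form Cox7a1 was at 26.7, 24.4 and 25.1 CPM in NCD and 25.2, 24.9 and 23.3 CPM in FFD. Its scaled levels overlapped, yet it was above the limit in 0 NCD and 3 FFD regions, where the negative probe level was lower relative to the upper quartile. Cox7b was at 317, 344 and 389 CPM in NCD and 330, 268 and 346 CPM in FFD (log2 -0.15, SE 0.15). Cox8a, the general form of subunit 8, was at 352, 373 and 471 CPM in NCD and 461, 448 and 515 CPM in FFD (log2 0.25, SE 0.15, adjusted p = 0.271). The diets overlapped in all of these genes, and none passed.

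The 5 members outside the filtered table were all paralogues, Cox6b2, Cox7b2, Cox8b, Ndufa4l2 and Ndufb11b, and they got no test. Their counts were at most 1.6, 1.23, 1.34, 1.45 and 1.08 times the negative probe level in any region. With Cox6a2 and Ndufaf7 they are the 7 members above the detection limit in no region, and their counts were close to the negative probe level. Another 8 members passed the limit in some regions, and 81 in all 6. Ndufa4, the counterpart of Ndufa4l2, was at 330, 308 and 437 CPM in NCD and 447, 386 and 453 CPM in FFD (log2 0.26, SE 0.16, adjusted p = 0.278).

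**Figure D3:**
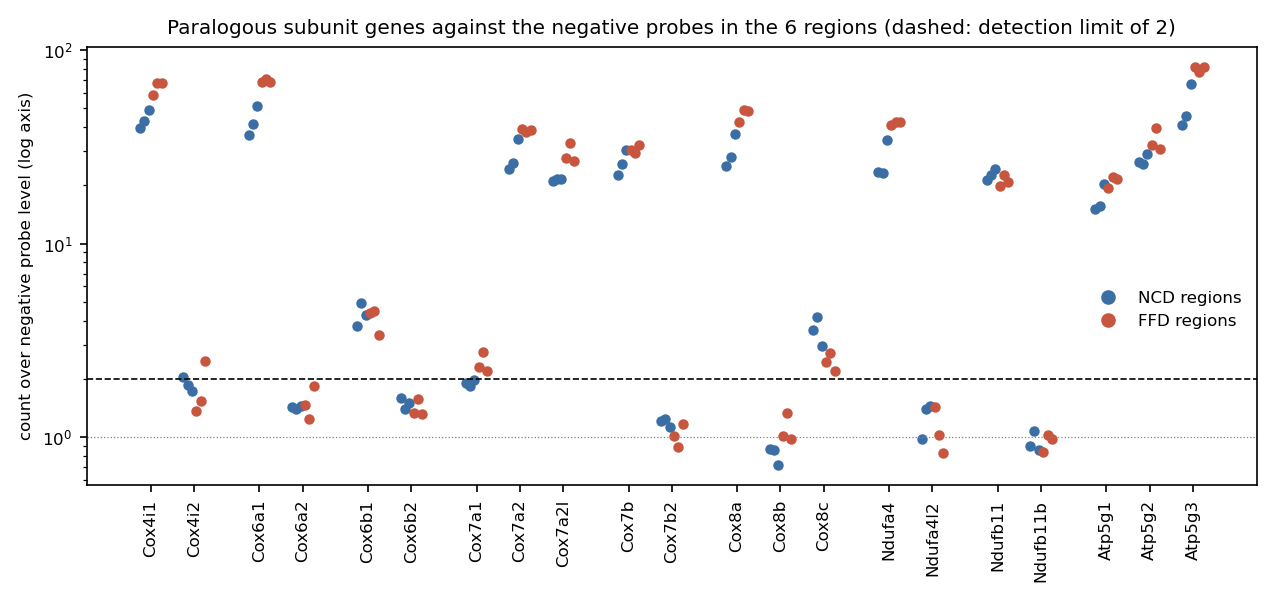
Raw count over the negative probe level, on a log axis, of the paralogous subunit genes in the 3 NCD and 3 FFD regions, 1 point per region. The dashed line is the detection limit of 2. Cox6a2, Cox6b2, Cox7b2, Cox8b, Ndufa4l2 and Ndufb11b stay under it in all 6 regions, and Cox8c lies between 2.18 and 4.17.

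In complex V, the ATP synthase, 1 of 17 genes passed, as lower (5.88%), beside 11.1% of all tested genes. Atp5md (chromosome 19, 47083471 to 47090647) is a small membrane subunit that helps to hold ATP synthase dimers together. It was at 180, 179 and 215 CPM in NCD and 141, 122 and 132 CPM in FFD, without overlap. It fell to 0.689 of the NCD level (log2 -0.54, SE 0.14, adjusted p = 0.015). The call was lost without FFD 2 (log2 -0.48, adjusted p = 0.0629) with DESeq2's size factors (log2 -0.44, adjusted p = 0.0506), with DESeq2's Wald test (0.0677) and with negative probe scaling (log2 -0.15, adjusted p = 0.534).

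The 5 genes of the F1 head, where ATP is made, had a median of 0.22, and 0 passed. Atp5a1 and Atp5b, the alpha and beta subunits, had the largest estimates of the complex. Atp5b was at 397, 454 and 625 CPM in NCD and 602, 608 and 713 CPM in FFD (log2 0.38, SE 0.18, adjusted p = 0.144), and NCD 3 lay inside the FFD range. Atp5c1, the central stalk gamma subunit, was at -0.13 (SE 0.15, adjusted p = 0.568).

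The c ring, the rotor that protons turn, is made from 1 protein encoded by 3 genes. Atp5g1 was at 211, 208 and 258 CPM in NCD and 210, 201 and 230 CPM in FFD (log2 -0.08, SE 0.14). Atp5g2 was at 369, 342 and 371 CPM in NCD and 352, 358 and 327 CPM in FFD (log2 -0.06, SE 0.14). Atp5g3 was at 576, 606 and 849 CPM in NCD and 892, 701 and 872 CPM in FFD (log2 0.28, SE 0.18, adjusted p = 0.292). None of the 3 passed, and in Atp5g3 NCD 3 stood far from NCD 1 and NCD 2. The other 9 genes of the complex, of the stalk and the membrane part, ran from -0.54 to 0.18.

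**Figure D4:**
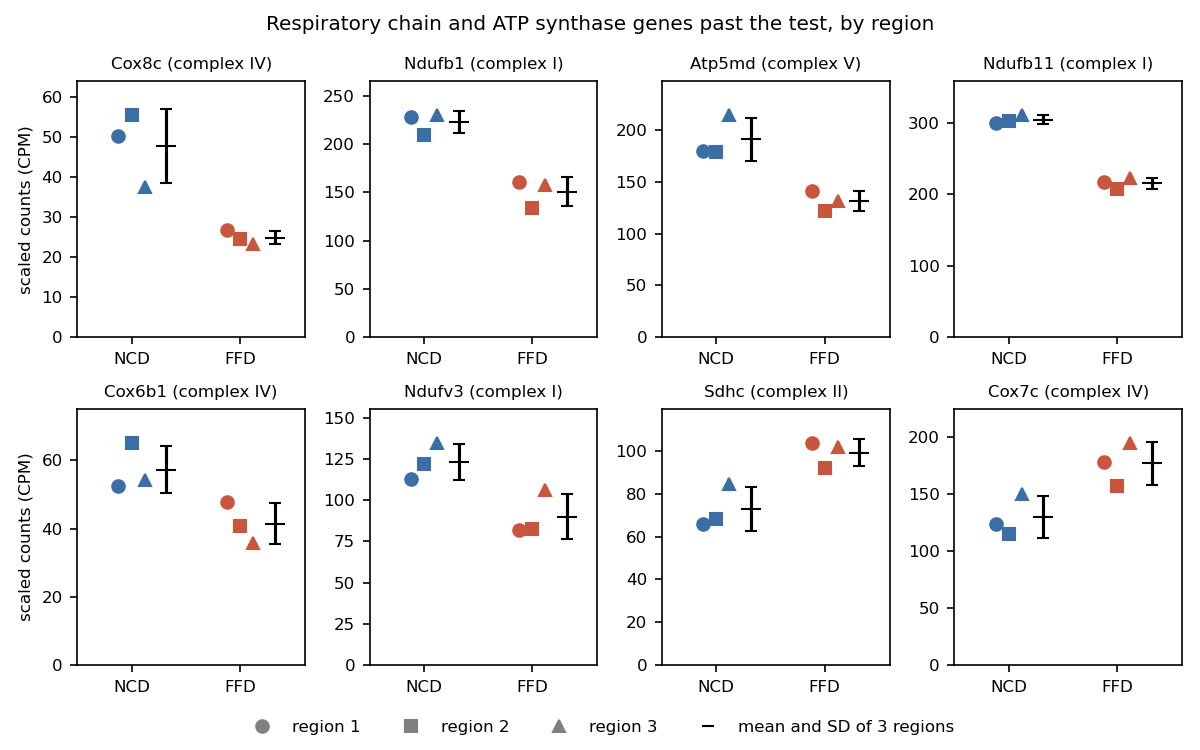
Scaled counts (CPM, axes from 0) of the 8 called genes in each region, with mean and SD of the 3 regions of each diet. In every panel the 3 FFD regions lie on 1 side of the 3 NCD regions, above them for Sdhc and Cox7c and below them for the other 6.

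To show the start sites of called genes, promoters of 4 of them follow, the 4 of smallest p with a promoter in the RefSeq table of GRCm38.p6, each from 250 bases before to 50 after the annotated start. Cox8c and Sdhc are not shown. Nuclear respiratory genes are known for sites of NRF1, of the ETS factor GABP and of YY1, and 1 word was searched for each on both strands, CGCATGCG for NRF1, CCGGAAG for ETS and ATGGCGG for YY1. Cox6a1, chosen after the search because it holds 2 of the words, is shown for comparison. Capitals mark a match to a word or to its reverse complement.
Ndufb1, 12:101975689-101975988, minus strand, holds no match.
Ndufb1: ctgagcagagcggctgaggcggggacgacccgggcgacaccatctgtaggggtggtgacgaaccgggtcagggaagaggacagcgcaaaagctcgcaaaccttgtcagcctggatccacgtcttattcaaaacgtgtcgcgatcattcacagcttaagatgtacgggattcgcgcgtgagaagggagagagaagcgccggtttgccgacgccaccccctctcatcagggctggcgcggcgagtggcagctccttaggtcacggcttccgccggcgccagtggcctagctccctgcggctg
Atp5md, 19:47090598-47090897, minus strand, holds the ETS word in reverse, its capitals starting 2 bases after the start.
Atp5md: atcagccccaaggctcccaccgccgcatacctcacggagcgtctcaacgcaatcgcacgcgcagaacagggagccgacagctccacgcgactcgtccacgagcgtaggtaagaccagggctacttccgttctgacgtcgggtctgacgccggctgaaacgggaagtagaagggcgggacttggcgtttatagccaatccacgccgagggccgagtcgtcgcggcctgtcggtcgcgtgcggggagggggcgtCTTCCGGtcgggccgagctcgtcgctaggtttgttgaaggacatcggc
Ndufb11, X:20617570-20617869, minus strand, holds no match.
Ndufb11: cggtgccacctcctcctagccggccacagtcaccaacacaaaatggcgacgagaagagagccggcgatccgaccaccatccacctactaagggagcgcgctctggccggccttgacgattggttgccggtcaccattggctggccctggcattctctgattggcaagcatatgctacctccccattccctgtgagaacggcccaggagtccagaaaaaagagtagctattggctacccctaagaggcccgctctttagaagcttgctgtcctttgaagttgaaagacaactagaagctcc
Cox6b1, 7:30626065-30626364, minus strand, holds the ETS word in reverse, starting 28 bases before the start.
Cox6b1: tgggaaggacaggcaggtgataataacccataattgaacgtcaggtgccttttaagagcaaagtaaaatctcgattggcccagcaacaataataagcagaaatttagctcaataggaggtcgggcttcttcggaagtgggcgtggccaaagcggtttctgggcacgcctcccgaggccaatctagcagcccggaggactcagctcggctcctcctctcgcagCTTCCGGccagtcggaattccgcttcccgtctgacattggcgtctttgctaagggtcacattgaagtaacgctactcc
Cox6a1, 5:115348909-115349208, minus strand, holds the NRF1 word 161 bases before the start and the ETS word in reverse 16 bases before it.
Cox6a1: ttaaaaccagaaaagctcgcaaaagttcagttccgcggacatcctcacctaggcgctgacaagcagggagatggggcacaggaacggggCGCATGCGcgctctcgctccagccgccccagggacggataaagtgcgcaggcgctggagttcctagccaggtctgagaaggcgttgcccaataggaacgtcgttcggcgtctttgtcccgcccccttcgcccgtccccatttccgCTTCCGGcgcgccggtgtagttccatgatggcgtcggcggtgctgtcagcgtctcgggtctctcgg

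Promoters were listed for 78 of the 96 members. The NRF1 word stood in 11 of them (14.1%), against 2.07% of the 27025 genes with a promoter. The ETS word stood in 19 (24.4%, against 9.93%) and the YY1 word in 13 (16.7%, against 4.69%). At least 1 of the 3 words was in 36 of the 78. Complex I held 9 of the 13 YY1 matches in 35 promoters, while complexes II, III and IV held 0 in 3, 5 and 13 promoters. ATP synthase genes held 4 NRF1 and 6 ETS matches in 15 promoters. Among the 6 called members with a promoter, 0 held the NRF1 word, 2 the ETS word and 0 the YY1 word. These are matches of letters in 1 window per gene and show no binding.

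Across regions, the members shared an order more often than genes in general did, a pattern noted after the values were seen and not tested. With each gene set to 100% at its NCD mean, the median member was at 92.8, 93.7 and 114% in NCD regions 1 to 3 and at 109, 95.5 and 112% in FFD regions 1 to 3. NCD 3 thus lay with FFD 1 and FFD 3, and FFD 2 with NCD 1 and NCD 2. NCD 3 was the highest NCD region in 83 of 91 members (91.2%), beside 31.8% of all tested genes and 42.8% of genes above the detection limit everywhere. This held for 38 of 38 genes with complex I names, Ndufa4 included, and for 4 of 4 of complex II. It also held for 9 of 9 of complex III and 17 of 17 of complex V, but for 9 of 15 of complex IV. FFD 2 was the lowest FFD region in 69 of 91 members (75.8%), beside 34.5% and 35.6%.

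The order was also read with total count and negative probe scaling. NCD 3 stayed the highest NCD region in most members with both, but FFD 2 stayed lowest in most only with total counts. With total counts NCD 3 was highest in 76.9% of members and 19% of all tested genes, and with negative probes in 94.5% and 44.1%. FFD 2 was lowest in 64.8% of members and 23.4% of all genes with total counts, and in 19.8% and 9.82% with negative probes. Some measures of the regions went with it in part. Alb took 5.65, 6.05 and 7.74% of counts in NCD regions and 2.95, 3.11 and 4.93% in FFD regions, highest in NCD 3. Target counts were 1.2, 1.51 and 1.01 times the deduplicated reads in FFD regions, highest in FFD 2, and 0.996 to 0.997 times in NCD regions. The part of either in the order was not tested. All members together took 1.59, 1.6 and 1.8% of counts in NCD regions and 1.99, 1.8 and 1.92% in FFD regions, so the diets met at NCD 3 and FFD 2.

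By complex, the share of counts of complex I was 0.495, 0.493 and 0.545% in NCD and 0.596, 0.535 and 0.563% in FFD. That of complex IV was 0.369, 0.381 and 0.396% in NCD and 0.454, 0.412 and 0.442% in FFD, without overlap. That of complex V was 0.519, 0.526 and 0.626% in NCD and 0.684, 0.62 and 0.663% in FFD, where NCD 3 and FFD 2 overlapped. The complex I assembly factors did not overlap either, at 0.0224, 0.0223 and 0.0232% in NCD and 0.0271, 0.0257 and 0.0247% in FFD. Complexes II and III overlapped, with NCD 3 at 0.0635 and 0.151% above FFD 2 at 0.0619 and 0.146%. Shares of all counts rise when other genes, such as Alb, take less, and they are not scaled to the upper quartile as the levels above are.

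**Figure D5:**
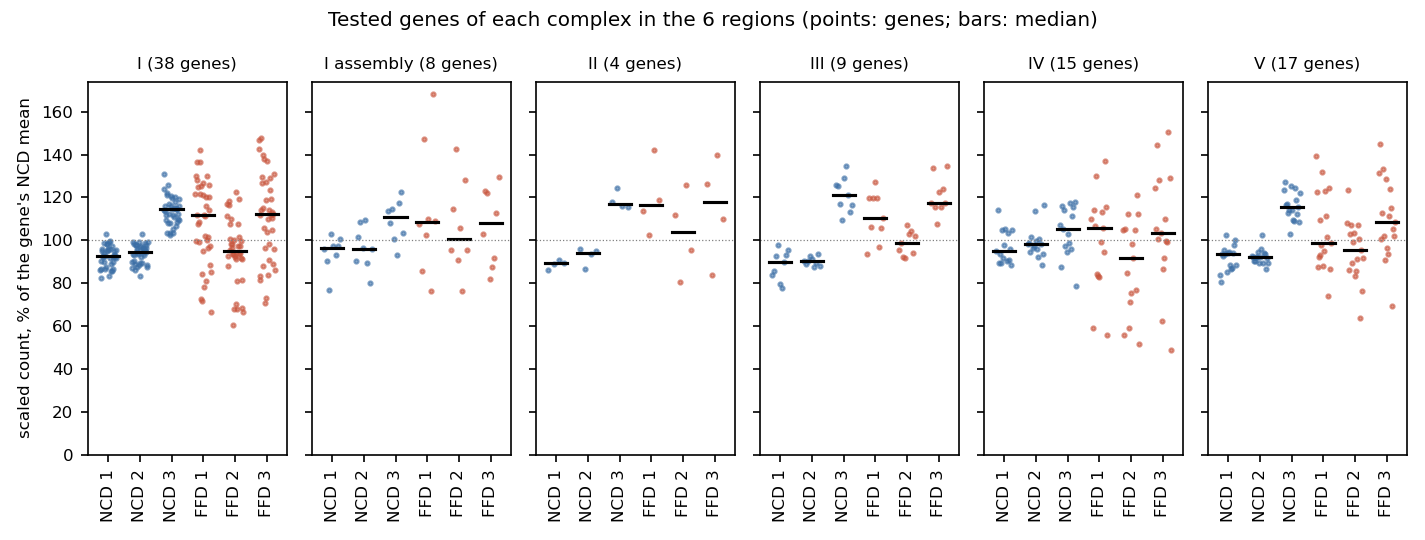
Scaled count of each tested gene as a percent of its own NCD mean, by complex and region, with the median as a bar. In every panel the bar of NCD 3 is above those of NCD 1 and NCD 2, in complex IV at 105 against 94.8 and 98.2. In complexes I, II and III it is near or above those of FFD 1 and FFD 3, and in complex V the bar of FFD 1 is at 98.8, below that of NCD 3 at 116. In complex IV the points of the FFD regions spread on both sides of 100.

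Other genes of the pathway were taken from textbook lists, 97 genes of which 96 were targets and 89 were tested. Of the 89, 4 were higher and 2 lower, beside 5.94% and 11.1% of all tested genes. Lyrm7, a chaperone that brings the Rieske protein into complex III, was at 42.8, 34.5 and 28.2 CPM in NCD and 17.5, 16.2 and 15.3 CPM in FFD. All FFD regions were lower and under the detection limit. Its change was -1.08 (SE 0.18, adjusted p = 0.000991), -1.93 with background subtracted, and it was called under all 19 alternatives. The other 5 assembly factors of complex III did not pass, and the median of the 6 was 0.21. Assembly factors of complexes I, II and V gave 0 calls by edgeR in 8, 3 and 5 tested genes (1, 0 and 0 higher and 2, 1 and 0 lower at an unadjusted p under 0.05, and 0 calls by DESeq2), with medians of -0.14, 0.01 and 0.14.

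For complex IV, 2 of 25 assembly factors rose and 0 fell, beside 5.94% and 11.1% of all tested genes, with a median of 0.03. Cox17, which carries copper to the oxidase, was at 75.8, 92.9 and 88.1 CPM in NCD and 113, 110 and 120 CPM in FFD (log2 0.41, SE 0.13, adjusted p = 0.0385). Higd2a, which helps to assemble the complex, was at 109, 122 and 125 CPM in NCD and 158, 157 and 161 CPM in FFD (log2 0.42, SE 0.13, adjusted p = 0.0358). Neither overlapped between the diets. Both calls were lost without each of NCD 1, NCD 2, FFD 1, FFD 2 and FFD 3, with adjusted p of 0.0634 to 0.166 for Cox17 and 0.0583 to 0.149 for Higd2a. With background subtracted they were lost too (adjusted p = 0.0746 and 0.0744).

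Beside 5.94% of all tested genes higher and 11.1% lower, 1 of 18 electron carriers and enzymes that feed ubiquinone rose and 0 fell (median 0.09). This was Etfdh, which passes electrons from fatty acid oxidation to ubiquinone, at 106, 132 and 132 CPM in NCD and 161, 162 and 186 CPM in FFD (log2 0.46, SE 0.14, adjusted p = 0.0359). The call was lost without NCD 1 (adjusted p = 0.168), NCD 2 (0.0934), FFD 2 (0.0617) or FFD 3 (0.0993), and with background subtracted (0.0829). In the citric acid cycle 1 of 13 enzymes rose and 0 fell, beside the same shares of all tested genes, with a median of 0.27. At an unadjusted p under 0.05, 6 were higher, beside 10.6% of all tested genes. Dld, a subunit shared by pyruvate and oxoglutarate dehydrogenase, was at 93.8, 89.6 and 115 CPM in NCD and 148, 132 and 154 CPM in FFD, all higher (log2 0.53, SE 0.14, adjusted p = 0.0169). Without NCD 1 or NCD 2 its adjusted p was 0.0789 and 0.11, and with both summed 0.0735.

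Of 11 tested regulators of mitochondrial genes 0 rose and 1 fell (median -0.06), beside 5.94% and 11.1% of all tested genes. Ppargc1b, a coactivator of respiratory genes, was at 21.4, 34.1 and 34.8 CPM in NCD and 21, 17.8 and 16.5 CPM in FFD, with NCD 1 close to FFD 1. It was above the detection limit in 2 NCD regions and 0 FFD regions. Its change was -0.73 (SE 0.19, adjusted p = 0.0174), and the call was lost without NCD 2 (adjusted p = 0.0849), NCD 3 (0.0611) or FFD 2 (0.0628), with total counts (0.0631), negative probes (0.203), DESeq2's Wald test (0.0738) and background subtracted (0.0997).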

How the data were processed

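Probe counts of 6 GeoMx regions, 3 NCD and 3 FFD, were used. The no template control was left unused. The deposited tables after probe quality control hold expected counts per target, whole numbers for nearly all targets, which were rounded. The filtered table holds those counts for fewer targets, by a rule that no source gives. The deposited table named Q3 holds a signal in which the counts were scaled to each region's 75th percentile. Per the file headers, reads and nuclei are counts and saturation of the sequencing is given in percent (99.1 to 99.3). Area and limit of quantitation, also deposited, come without a unit or formula. Per the submitters' processing notes the genome build is GRCm38 and edgeR was among the tools, with no version or role given.

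The 13095 genes of the filtered table were fitted with edgeR 4.0.16 (R 4.3.3) by the quasi-likelihood test, with upper quartile scaling and a term for diet alone, at a Benjamini-Hochberg adjusted p of 0.05. The fitted biological coefficient of variation was 12%. Levels are CPM on the scaled library sizes, and n is 3 regions per diet. The SE is approximate, taken from the log2 fold change and its quasi-likelihood F statistic. The full table holds 12 targets that are not genes (0.0145 to 0.0192% of counts), left out. Coordinates and promoters are RefSeq's for GRCm38.p6. The script was tested on simulated data.

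Members, lists and tests were chosen with earlier results of these data known. Values in all regions were given for called members, for the 2 of highest count where a complex had none, for paralogue sets, and for called genes of the other lists. Alternatives were other scalings, DESeq2 1.42.0, limma 3.58.1 (trend on the signal, and voom), edgeR's robust option, other filters, background subtraction with a floor of 1 count, and leaving out each region. NCD 1 and NCD 2 summed was added after seeing the data. Depth of 2069101 to 3491372 counts per region sets the counting error. Marker lists of endothelium, cholangiocytes, lymphocytes, neutrophils and muscle gave 0 higher and 1, 0, 0, 0 and 1 lower of 3, 2, 3, 3 and 1 tested genes. Of all tested genes, 5.94% were higher and 11.1% lower. The values of 1 member are not reported here, though it is part of the counts and medians.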

Additional observations from a re-analysis of the deposited data

How the results depend on the processing

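No paired analysis was possible because the replicate numbers used here only follow region order, and no label ties an NCD region to an FFD region. Of 25 named members tested under 19 alternatives, or 18 for Cox4i2 and Cox6a2, 0 calls reversed. Members called higher numbered 2 as reported, 5 with TMM or size factors, 8 with total counts, 46 with negative probes, and 0 with background subtracted or NCD 1 and NCD 2 summed. Members lower numbered 6 as reported, 3 with TMM, no filter, filterByExpr or the summed regions, 2 with size factors or DESeq2's test, and 1 with negative probes. Complex I went from 0 higher to 2 with TMM or size factors, 4 with total counts, 22 with negative probes and 1 with DESeq2, and from 3 lower to 1 with TMM, size factors, DESeq2, no filter, filterByExpr or the summed regions and 0 with negative probes. Its assembly factors had 1 higher with TMM or size factors and 3 with negative probes. With negative probes 3, 6, 5 and 7 genes of complexes II, III, IV and V were higher, beside 27.7% of all tested genes. For the other scalings, DESeq2's test, background subtraction, the summed regions and left-out regions, shares of all tested genes are those given above. Without a filter, 937 of 19951 genes were higher and 1644 lower, and with filterByExpr 939 and 1644 of 19950. Complexes II and IV had 0 higher with background subtracted or the summed regions, complex IV had 2 and complex V 1 higher with total counts. Complex IV had 1 lower with all 4 other scalings, DESeq2, no filter, filterByExpr, background subtraction and the summed regions, and complex V 0 lower with size factors, negative probes and DESeq2. Leaving out 1 region gave 0 to 9 members higher and 1 to 6 lower, with 0 to 5 and 0 to 3 in complex I, 0 to 1 higher in complexes II and III, 0 to 1 and 1 to 2 in complex IV, and 0 to 1 and 0 to 1 in complex V. The assembly factors gave 0 calls there. Members not called as reported but called higher were Cox6a1 with total counts (adjusted p = 0.048) and, with negative probes, Cox6a1, Cox4i1, Cox8a, Ndufa4, Ndufaf8, Uqcrq and Atp5g3 among those named. The cause of these moves was not tested. Signal over background limits 7 members, which were above the detection limit in no region: 5 got no test, and Cox6a2 and Ndufaf7 did not pass.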
